A study of Rattus norvegicus with 12 samples.

Results

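Clusterin (Clu) and 7 other genes that are commonly followed when the prostate regresses after loss of androgen were examined in the rat ventral prostate. They were taken by name as a list: Clu, Gadd45a, Gadd45b, Gadd45g, Anxa1, Tgm2, Lgals3 and Mgp. The list was made from names and not from a threshold on measured values. It was chosen with earlier results of these data known, so the number of its genes that passed is no independent evidence. All 8 were measured, each by 1 probe set, among 14506 genes with a symbol of their own on the array (29214 probe sets in all). The tissue came from male Wistar rats, 90 days old at treatment, in 4 groups of 3 arrays. The first group was castrated: the testes were removed through the scrotum under anaesthesia with ketamine at 150 mg/kg together with xylazine at 10 mg/kg. The second was intact and received 17β-estradiol at 25 mg/kg in corn oil. The third had both the orchiectomy and the estradiol, called the combined treatment here. The control rats were intact and received corn oil alone. The labels do not say that the rats that were only castrated received the oil, or that the intact ones had anaesthesia or a sham operation. Prostates were taken after 3 days, a time the labels give for each treated group.

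The ventral prostate is a lobe of secretory epithelium that depends on testicular androgen. When androgen is withdrawn, many luminal cells die by apoptosis, macrophages clear the debris and the gland shrinks within days. A high dose of estradiol given to an intact male lowers testicular androgen through the pituitary and also acts on the prostate directly. Clusterin is a secreted, stress-induced extracellular chaperone that was described in the regressing rat prostate under the name TRPM-2, and it is the classical marker of that process. The 3 Gadd45 proteins are small stress sensors that bind MAP3K4, PCNA and the Cdk1 and cyclin B1 complex. Annexin A1 (Anxa1) is a calcium-dependent membrane-binding protein with an anti-inflammatory role that acts through formyl peptide receptors. Transglutaminase 2 (Tgm2) cross-links proteins in dying cells and matrix, galectin-3 (Lgals3) is a sugar-binding lectin made by macrophages and many epithelia, and matrix Gla protein (Mgp) is a vitamin K-dependent inhibitor of calcification.

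The 3 Gadd45 genes are paralogs that behaved differently here, so their promoters are shown for comparison. The windows are from RefSeq on the rat assembly GRCr8 and hold 250 bases before and 50 bases after the table's transcript start. The table held 4 of the 8 genes, these 3 and Anxa1. All 3 lie on the minus strand and are printed 5′ to 3′ along the gene. Gadd45a is at chr4:97486750-97487049, Gadd45b at chr7:9430669-9430968 and Gadd45g at chr17:13530302-13530601. The starts are not alike. The windows of Gadd45a and Gadd45g reach past the 5′ ends of the annotated genes, at 97486799 and 13530351. Those of Gadd45b and Anxa1 lie wholly inside the annotated genes, whose 5′ ends are at 9430991 and 227306739. Capitals mark matches to 6 short motifs searched on both strands.
Gadd45b: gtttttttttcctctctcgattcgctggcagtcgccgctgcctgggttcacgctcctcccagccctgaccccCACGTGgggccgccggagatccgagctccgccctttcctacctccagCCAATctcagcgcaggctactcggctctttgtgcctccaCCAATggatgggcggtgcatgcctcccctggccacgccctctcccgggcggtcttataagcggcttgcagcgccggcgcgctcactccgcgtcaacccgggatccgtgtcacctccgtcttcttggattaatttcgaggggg
Gadd45g: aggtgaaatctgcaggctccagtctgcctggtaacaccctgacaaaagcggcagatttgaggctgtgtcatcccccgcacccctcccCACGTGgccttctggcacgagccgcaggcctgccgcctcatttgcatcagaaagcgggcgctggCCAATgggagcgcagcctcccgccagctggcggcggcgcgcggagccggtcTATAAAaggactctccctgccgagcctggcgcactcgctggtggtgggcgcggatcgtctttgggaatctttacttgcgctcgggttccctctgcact
Gadd45a: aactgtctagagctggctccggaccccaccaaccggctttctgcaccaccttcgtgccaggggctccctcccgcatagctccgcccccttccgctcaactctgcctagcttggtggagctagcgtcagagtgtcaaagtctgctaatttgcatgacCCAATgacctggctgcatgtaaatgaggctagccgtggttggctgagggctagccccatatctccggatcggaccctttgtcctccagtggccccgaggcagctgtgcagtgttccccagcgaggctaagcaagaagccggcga
The capitals are a CCAAT box, a TATA box with the letters TATAAA or the palindromic E-box with the letters CACGTG. Gadd45b held CCAAT at -131 and -92 and CACGTG at -178 from the start. Gadd45g held CCAAT at -99, CACGTG at -163 and TATAAA at -48, and Gadd45a held CCAAT at -94. The Anxa1 window (chr1:227303683-227303982, minus strand) held TATAAA at -46. Of all 33469 promoters in the table, 37.5% held CCAAT, 6.42% CACGTG and 14.2% TATAAA. None of these 4 windows held the letters of AP-1 (TGANTCA, in 7.33% of all promoters), of the heat shock element core (GAANNTTC, 8.59%) or of the androgen and glucocorticoid response element half-site (AGAACA, 20.7%). The GC content was 64.3% for Gadd45b and Gadd45g, 60.3% for Gadd45a and 45.0% for Anxa1, against a median of 51.7% over the table. No motif was overlapped by another in these windows, and a match is a run of letters only.

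Levels are given on the deposited scale, read here as log2: a difference of 1 is a doubling. They are compared between groups within a gene and never between genes. Estradiol arrays 1 and 2 stood apart from the rest: the standard deviation over all probe sets was 1.93 and 2.01 on them, against 2.24 to 2.30 on the other 10 arrays. The 10% of genes with the lowest average level had a mean of 3.41 and 3.34 on them, against 2.69 to 2.84 elsewhere. The 10% with the highest average level, the end where Clu lies, had a mean of 9.27 and 9.82 on them, against 10.00 to 10.10 elsewhere. Their medians were 5.76 and 5.65, above the 5.53 to 5.62 of the other 10 arrays. The number of arrays, 3 per group, limits the precision. Which animals gave which array is not stated, so the spread behind each p-value is that between arrays and may be partly technical. In whole tissue, fewer cells of a type and less RNA per cell cannot be told apart, and this holds for every level below.

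Castration raised 3 of the 8 genes and lowered none at an adjusted p below 0.05 (limma, Benjamini-Hochberg over all genes). The background was 3.17% of all 14506 genes called higher and 2.36% called lower. Estradiol in intact rats raised 2 and lowered none, where 2.51% of all genes were called higher and 5.48% lower. The combined treatment raised 3 and lowered 1, where 2.12% of all genes were called higher and 2.21% lower. The 3 comparisons share the control arrays. The median difference of the 8 genes was 0.70 after castration, 0.48 after estradiol and 0.87 after both, beside 0.01, 0.07 and 0.04 over all genes. A test of any difference among the 4 groups called Clu, Gadd45b and Anxa1, where it called 5.47% of all genes. The plot of levels by array shows the 8 genes side by side.

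**Figure D1:**
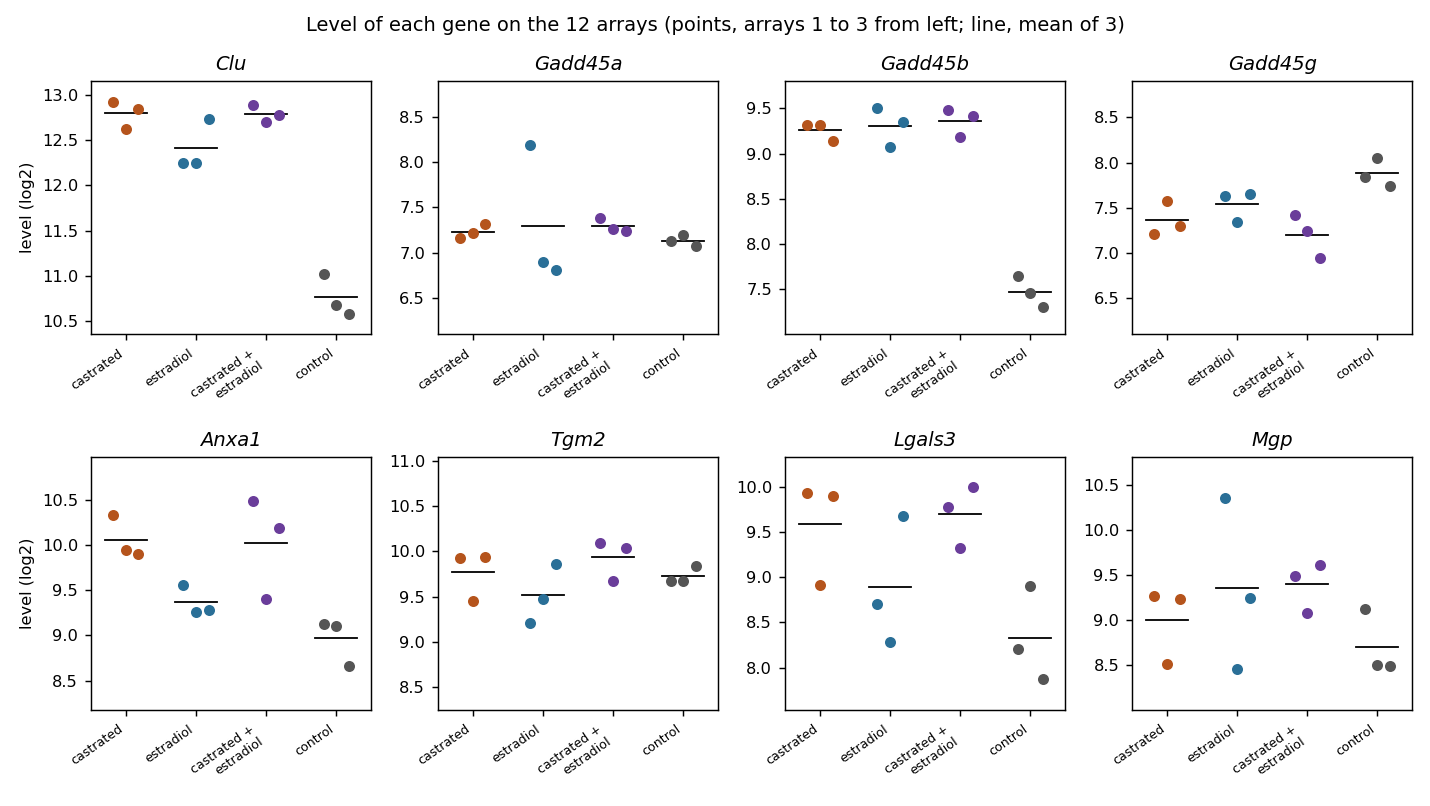
Level of each of the 8 genes (log2, vertical axis, own range per gene) on the 12 arrays, by group. Points are arrays 1 to 3 and the line is their mean. For Clu every treated array lay at 12.24 or above and every control array at 11.03 or below, and Gadd45b separated in the same way. Tgm2 and Mgp overlapped between all groups.

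Clusterin was higher in every treated group. Its level was 12.92, 12.62 and 12.85 on the castrated arrays, 12.24, 12.25 and 12.73 on the estradiol arrays, 12.89, 12.70 and 12.78 on the combined arrays, and 11.03, 10.67 and 10.58 on the control arrays. No treated array overlapped with a control array, and estradiol arrays 1 and 2 were the lowest treated ones. Castration raised it by 2.04 ± 0.18 (SE), about 4.1-fold, with an adjusted p of 1.71e-05. Estradiol in intact rats raised it by 1.65 ± 0.18, about 3.1-fold (adjusted p = 0.000151). The combined treatment raised it by 2.03 ± 0.18, about 4.1-fold (adjusted p = 1.89e-05). Ranked from the largest rise among 14506 genes, these differences stood at 31, 28 and 19. The 95% intervals were 1.66 to 2.42, 1.26 to 2.03 and 1.65 to 2.41. The highest value of any probe set on the arrays lay between 13.09 and 13.39, so the treated Clu levels were within about a unit of the top of the scale.

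The treated groups were compared with each other for Clu. The combined treatment differed from castration by -0.01 (95% interval -0.39 to 0.37, adjusted p = 1). It differed from estradiol by 0.38 (-0.002 to 0.76, adjusted p = 0.266), and estradiol differed from castration by -0.39 (-0.77 to -0.01, adjusted p = 0.18). None of the 8 genes passed in these 3 comparisons, nor did any other gene (0% of 14506 in each by limma). At an unadjusted p below 0.05 the counts over all genes were 153 for combined against castrated, 2742 for combined against estradiol and 3956 for estradiol against castrated. Estradiol array 3 decided part of this. Without it, Clu was 0.54 higher after the combined treatment than after estradiol (adjusted p = 0.0292) and 0.55 lower after estradiol than after castration (-0.55, adjusted p = 0.0223). The estradiol group then consisted of the 2 arrays that stood apart. In that fit 4153 of all 14506 genes passed for combined against estradiol and 5417 for estradiol against castrated. The difference was therefore not particular to Clu.

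Gadd45b was the other gene raised by all 3 treatments. It read 9.32, 9.31 and 9.14 on the castrated arrays, 9.50, 9.08 and 9.35 on the estradiol arrays, 9.49, 9.18 and 9.42 on the combined arrays, and 7.64, 7.46 and 7.30 on the control arrays. The treated arrays lay together and all above the controls. The rise was 1.79 ± 0.16 after castration (about 3.5-fold, adjusted p = 2.15e-05), 1.84 ± 0.16 after estradiol (3.6-fold, adjusted p = 2.18e-05) and 1.90 ± 0.16 after both (3.7-fold, adjusted p = 1.6e-05). The treated groups differed from each other by 0.11 or less, and the 95% intervals of these differences lay between -0.29 and 0.45. The calls of Clu and Gadd45b against control were kept in all 22 alternative fits of each comparison. Without estradiol arrays 1 and 2, which leaves 1 estradiol array assumed to vary like the other groups, the estradiol differences were 1.97 for Clu (adjusted p = 0.000253) and 1.88 for Gadd45b (adjusted p = 0.000217).

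**Figure D2:**
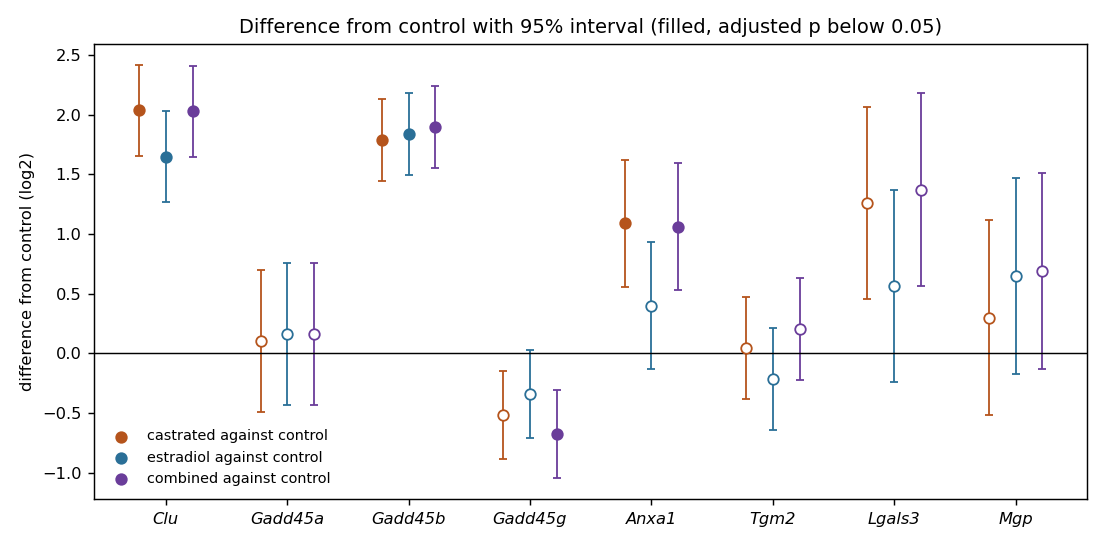
Difference from control (log2, vertical axis) of each gene after castration, estradiol and the combined treatment. Points are limma estimates, bars are 95% intervals, and filled points have an adjusted p below 0.05. Clu and Gadd45b were filled in all 3 comparisons, Anxa1 in castrated and combined, and Gadd45g in combined alone, at -0.68.

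Whether castration and estradiol added up was tested with the interaction, which is the estradiol effect in castrated rats minus that in intact rats. Estradiol changed Clu by -0.01 in castrated rats and by 1.65 in intact rats, a difference of -1.66 ± 0.25 (adjusted p = 0.00615). For Gadd45b the effects were 0.11 in castrated rats and 1.84 in intact rats, a difference of -1.74 ± 0.23 (adjusted p = 0.0019). These were the 2 of 8 genes that passed, where 1.1% of all genes did. Put another way, the combined treatment raised Clu by 2.03, while the 2 single treatments summed to 3.68, and it raised Gadd45b by 1.90, against a sum of 3.63. For Clu, 3.68 above the control mean of 10.76 would lie beyond 13.39, the highest value of any probe set on the arrays. The Clu interaction can therefore not show whether the effects would add up on a wider scale. The part of this upper end was not tested. Both interactions were called in all 21 alternatives. Without estradiol arrays 1 and 2, which leaves 1 estradiol array, the interactions were -1.98 for Clu and -1.78 for Gadd45b. For Anxa1 the combined difference was 1.06 and the sum 1.49 (interaction -0.43, adjusted p = 0.575), and for Lgals3 they were 1.37 and 1.82 (-0.45, adjusted p = 0.694). The interaction of Gadd45g was 0.18 (adjusted p = 0.736).

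**Figure D3:**
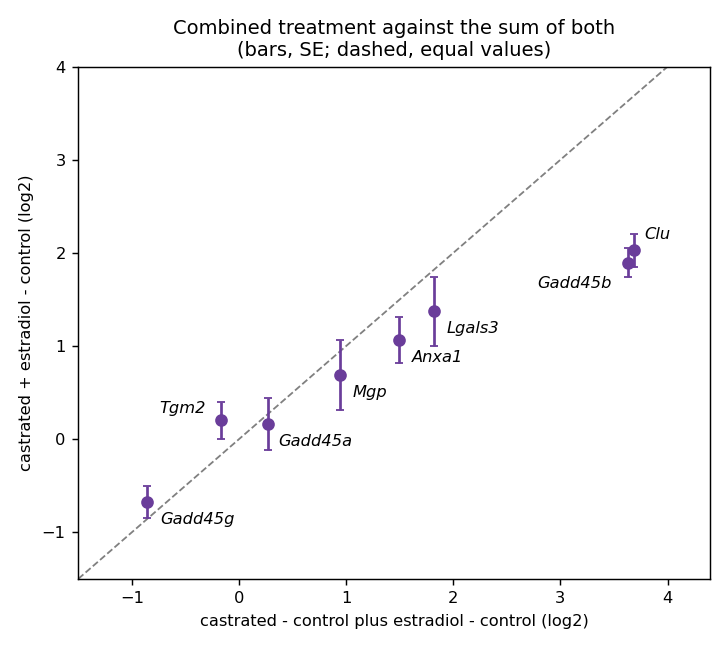
Combined treatment minus control (vertical axis, log2) against the sum of the castrated and estradiol differences from control (horizontal axis, log2). Each point is 1 gene, bars are the SE of the combined difference, and the dashed line marks equal values. Clu (3.68 on the horizontal axis, 2.03 on the vertical) and Gadd45b (3.63 and 1.90) lie farthest below the line.

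The other Gadd45 genes did not move with Gadd45b. Gadd45g, which shares the p38-activating and growth-arrest functions of the family, was lower in treated prostates. It read 7.21, 7.57 and 7.30 on the castrated arrays, 7.63, 7.35 and 7.65 on the estradiol arrays, 7.42, 7.24 and 6.95 on the combined arrays, and 7.84, 8.05 and 7.74 on the control arrays. Every treated array lay below every control array. It fell by 0.68 ± 0.17 after the combined treatment (adjusted p = 0.0412). The differences after castration (-0.52, adjusted p = 0.111) and estradiol (-0.34, adjusted p = 0.197) did not pass. The combined call ended without any 1 of the 3 control arrays, any 1 of the 3 combined arrays, or castrated array 1 or 3, where the difference ran from -0.79 to -0.55. It was kept in 12 of 22 alternatives.

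Gadd45a, the p53-responsive member of the family, passed in none of the 6 comparisons between groups. It read 7.17, 7.21 and 7.31 on the castrated arrays, 8.19, 6.89 and 6.80 on the estradiol arrays, 7.38, 7.26 and 7.23 on the combined arrays, and 7.13, 7.19 and 7.07 on the control arrays. Estradiol array 1 was more than a unit above the other 2 of its group, and this is 1 of the 2 arrays that stood apart. The differences from control were 0.10 after castration, 0.17 after estradiol and 0.16 after both, each with an SE of 0.28. Without estradiol array 1 the estradiol difference was -0.28 and did not pass either.

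Annexin A1 was raised by castration with and without estradiol. Its level was 10.33, 9.95 and 9.90 on the castrated arrays, 9.56, 9.26 and 9.28 on the estradiol arrays, 10.48, 9.41 and 10.19 on the combined arrays, and 9.12, 9.11 and 8.67 on the control arrays. All treated arrays lay above all control arrays, by the least on the estradiol arrays, and combined array 2 was far below the other 2 of its group. The rise was 1.09 ± 0.25 after castration (about 2.1-fold, adjusted p = 0.0196) and 1.06 ± 0.25 after both (2.1-fold, adjusted p = 0.0264). After estradiol the difference was 0.40 (95% interval -0.13 to 0.93, adjusted p = 0.272). Estradiol differed from castration by -0.69 (adjusted p = 0.145) and combined from estradiol by 0.66 (adjusted p = 0.241), so the smaller value after estradiol alone did not pass a test of the difference. Both calls ended when some single arrays were left out, also in fits where the difference grew. The castrated one ended without control array 2 or 3 or castrated array 1 (0.94 to 1.16), and the combined one without any 1 control array or combined array 1 or 3 (0.83 to 1.14).

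Galectin-3 was higher on most treated arrays without passing the threshold. It read 9.93, 8.91 and 9.90 on the castrated arrays, 8.71, 8.28 and 9.68 on the estradiol arrays, 9.78, 9.32 and 9.99 on the combined arrays, and 8.20, 8.90 and 7.87 on the control arrays. Castrated array 2 and control array 2 nearly met, and estradiol array 3 lay with the castrated arrays while estradiol arrays 1 and 2 overlapped with the controls. The difference was 1.26 ± 0.37 after castration (adjusted p = 0.0707), 0.56 after estradiol (adjusted p = 0.306) and 1.37 after both (adjusted p = 0.0575). The threshold was met in 6 of 22 alternatives for castration and in 9 of 22 for both. Leaving out castrated array 2 gave 1.59 for castration (adjusted p = 0.0413). Leaving out estradiol array 1 or 3, which does not change the value of 1.26, gave adjusted p-values of 0.0464 and 0.0327. For the combined treatment, leaving out castrated array 2 or any 1 estradiol array brought 1.37 past the threshold. Without estradiol array 3, Lgals3 was 1.20 higher after both than after estradiol (adjusted p = 0.0288) and differed by -1.09 between estradiol and castration (adjusted p = 0.0333). With all arrays these 2 values were 0.81 (adjusted p = 0.264) and -0.69 (adjusted p = 0.227). Leaving out estradiol array 3 also let 4153 and 5417 of all genes pass in these 2 comparisons.

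Markers of macrophages, cells known to make Lgals3 and Anxa1, were higher in the treated groups. All 12 markers on the list were measured. Their mean level per array ranged over 7.96 to 8.51 in the castrated group, 7.09 to 8.19 in the estradiol group, 7.68 to 8.15 in the combined group and 6.30 to 6.74 in the control group. Over all genes 3.17% were called higher after castration, 2.51% after estradiol and 2.12% after both. Of the markers, 9 of 12 rose and none fell after castration, 4 and none after estradiol, and 6 and none after both. Their median differences were 1.58, 0.68 and 1.29. Gpnmb (3.26 after castration) and Mmp12 (3.23) had the largest differences. Estradiol array 3 had both the highest marker mean of its group (8.19) and its highest Lgals3 level (9.68). Anxa1 did not follow the markers within that group. It was 9.28 on estradiol array 3 and highest, at 9.56, on estradiol array 1, where the marker mean was 7.12. The part of macrophage number in the differences of Lgals3, Anxa1, Clu and Gadd45b was not tested. An array level has no true 0, so the absence of a marker cannot be read from these values.

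**Figure D4:**
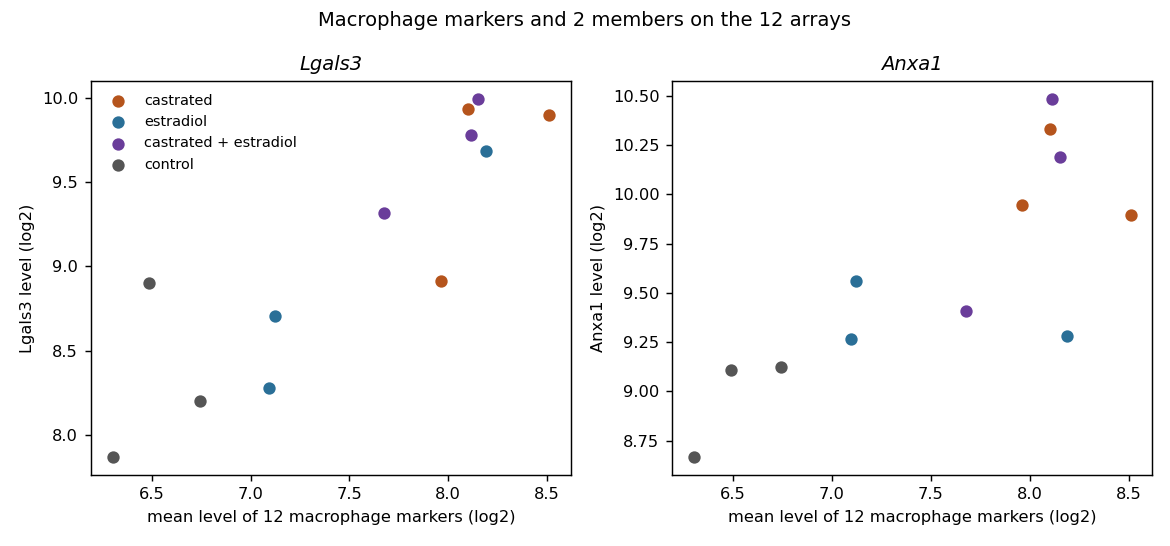
Level of Lgals3 (left) and Anxa1 (right) on each array against the mean level of the 12 macrophage markers on that array (all log2). Points are arrays coloured by group. The control arrays lie at marker means of 6.30 to 6.74, and the castrated arrays at 7.96 to 8.51. Estradiol array 3, at 8.19, has an Lgals3 level of 9.68 and an Anxa1 level of 9.28.

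Transglutaminase 2 passed in none of the comparisons. It read 9.93, 9.45 and 9.94 on the castrated arrays, 9.20, 9.47 and 9.86 on the estradiol arrays, 10.09, 9.68 and 10.03 on the combined arrays, and 9.67, 9.67 and 9.84 on the control arrays. All groups overlapped with the controls. The difference was 0.04 after castration (95% interval -0.38 to 0.47), -0.22 after estradiol (-0.64 to 0.21) and 0.20 after both (-0.22 to 0.63). The interval after castration leaves out a rise of 0.5 or more on the log2 scale. Combined against estradiol was 0.42 with all arrays (adjusted p = 0.269) and 0.59 without estradiol array 3 (adjusted p = 0.0369), where 4153 of all genes passed.

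Matrix Gla protein did not pass either. It read 9.26, 8.51 and 9.24 on the castrated arrays, 10.36, 8.46 and 9.24 on the estradiol arrays, 9.49, 9.08 and 9.61 on the combined arrays, and 9.12, 8.51 and 8.49 on the control arrays. The estradiol arrays spread over nearly 2 units, and all groups overlapped. The difference was 0.30 after castration, 0.65 after estradiol and 0.69 after both, each with an SE of 0.38, and the adjusted p-values were 0.87, 0.253 and 0.478. The 95% intervals reached 1.12, 1.47 and 1.51, so a doubling stayed within them. The lowest array of each group was also counted over the 8 genes: in the combined group array 2 was the lowest of its 3 for 6 of the 8 genes. Array 2 was also the lowest for 5 genes in the estradiol group and for 4 in the castrated group. In the control group array 3 was the lowest for 7 of 8. The same counts were not made over all genes, so they are not read as a property of these 8.

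Genes of the pathways around these 8 were taken from 9 lists, read against the background shares above. Of 14 measured partners of the Gadd45 proteins in the p38 and JNK pathways and the cell cycle, 1 rose and none fell after castration, with a median difference of 0.04. It was Ccnb1, cyclin B1, at 0.78 (adjusted p = 0.0278). After estradiol Ccnb1 rose by 0.85 (adjusted p = 0.0173), and 2 kinases fell, Mapk8 (JNK1) with -1.07 (adjusted p = 0.0354) and Map2k3, which activates p38, with -0.64 (adjusted p = 0.0377). None passed after both. These calls were fragile. Those of Ccnb1 ended without any 1 control array, and after castration also without castrated array 1 or 3 (0.68 to 0.89 in all). The Mapk8 call ended without any 1 control or combined array or castrated array 3 (-1.08 to -1.06). That of Map2k3 also ended without estradiol array 1 or 2 (-0.68 to -0.55).

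Of 23 measured genes of growth arrest and stress sensing, 3 rose and 2 fell after castration. Sesn3, a sestrin that restrains mTORC1, rose by 1.59 after castration (adjusted p = 0.000123), 1.24 after estradiol (adjusted p = 0.000984) and 1.55 after both (adjusted p = 0.000157). It thus passed in the same 3 comparisons as Clu and Gadd45b, in all 22 alternatives of each. Plk2, a stress-induced polo-like kinase, rose by 1.18 after castration (adjusted p = 0.00834) and 0.95 after both (adjusted p = 0.0327), and its difference after estradiol was 0.24 (adjusted p = 0.464). The combined call of Plk2 ended without control array 2 or 3, castrated array 1, or combined array 1 or 2 (0.79 to 0.95). Nupr1, a stress-induced chromatin protein, fell by 2.04 after castration (adjusted p = 0.0382), but its arrays overlapped between groups. That call ended without control array 2 or 3, castrated array 1 or 3, estradiol array 2 or any 1 combined array (-2.04 to -1.52). After estradiol 1 gene of this list passed and after both 2 did, all upward.

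Of 11 measured clusterin receptors and other extracellular and heat shock chaperones, none passed after castration or after both. Trem2, a clusterin-binding receptor of myeloid cells, had the smallest p after castration (0.70, adjusted p = 0.103). After estradiol 2 fell, the lipoprotein receptor Vldlr (-1.06, adjusted p = 0.00309) and the heat shock factor Hsf1 (-0.51, adjusted p = 0.0414). Vldlr stayed below the threshold in 21 of 22 alternatives. The Hsf1 call was kept in 7 of 22 and ended without any 1 control or combined array, castrated array 1 or 3, or estradiol array 2 (-0.55 to -0.46).

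Of 16 measured annexins, S100 partners and formyl peptide receptors, 4 rose and 1 fell after castration. Anxa2, the annexin that forms a complex with S100a10, rose by 1.71 after castration (adjusted p = 0.0026) and 1.77 after both (adjusted p = 0.00236), while its difference after estradiol was 0.83 (adjusted p = 0.0776). S100a10 fell by 1.11 after castration (adjusted p = 0.00129), 1.62 after estradiol (adjusted p = 9.44e-05) and 1.10 after both (adjusted p = 0.00145). The 2 partners therefore passed in opposite directions in castrated and combined prostates. Pla2g4a, the cytosolic phospholipase A2 whose action annexin A1 is known to restrain, rose by 1.33 after castration (adjusted p = 0.000273), 0.87 after estradiol (adjusted p = 0.0057) and 0.94 after both (adjusted p = 0.00358). Their castrated and combined calls were kept in all alternatives run. After estradiol 1 rose and 2 fell, the second being Anxa11 (-0.63, adjusted p = 0.024), whose call ended without any 1 control array or estradiol array 2 (-0.66 to -0.57).

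Of the 6 other transglutaminases measured, Tgm1, the keratinocyte enzyme, was the 1 that passed. It rose by 1.23 after castration (adjusted p = 0.00389), 1.25 after estradiol (adjusted p = 0.00375) and 1.23 after both (adjusted p = 0.00436), where Tgm2 did not pass. Of 10 other galectin genes, Lgalsl, a galectin-related protein, was the 1 that passed. It fell by 0.63 after castration (adjusted p = 0.0255) and 0.85 after estradiol (adjusted p = 0.00486), and its difference after both was -0.57 (adjusted p = 0.0524). The castrated call ended without any 1 control array or castrated array 2 or 3 (-0.68 to -0.55).

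Of 15 measured Gla protein and calcification genes, none rose and 2 fell after castration. Pros1, the vitamin K-dependent protein S that bridges dying cells to phagocyte receptors, fell by 1.02 after castration (adjusted p = 0.0205), 1.15 after estradiol (adjusted p = 0.0102) and 1.15 after both (adjusted p = 0.0117). Ggcx, the carboxylase that makes Gla residues in Mgp and Pros1, fell by 0.78 after castration (adjusted p = 0.0217). Both castrated calls ended without any 1 control array or castrated array 3, that of Pros1 also without castrated array 1 and that of Ggcx also without castrated array 2 (-1.08 to -0.91 for Pros1, -0.83 to -0.66 for Ggcx). The other calls of Pros1 ended without control array 2 (-1.11 after estradiol), and after both also without combined array 1 or 3 (-1.17 to -1.12). After estradiol Enpp1, which makes the calcification inhibitor pyrophosphate, also fell (-1.90, adjusted p = 0.0166), and Bglap, osteocalcin, rose (0.61, adjusted p = 0.0458). The Enpp1 call ended without any 1 control array (-1.99 to -1.86). The Bglap call was kept in 3 of 21 alternatives and ended without any 1 array except estradiol array 3 (0.46 to 0.66).

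Of 21 measured genes for clearance of apoptotic cells, 3 rose and 1 fell after castration. The complement subunits C1qb (1.77, adjusted p = 0.0266) and C1qa (1.41, adjusted p = 0.00721) and the cholesterol exporter Abca1 (1.24, adjusted p = 0.0126) rose. Calr, calreticulin, fell by 1.11 (adjusted p = 0.00327), and it also fell after estradiol (-1.07, adjusted p = 0.00441) and after both (-0.86, adjusted p = 0.0185). After both, C1qb (1.62, adjusted p = 0.0498), C1qa (1.14, adjusted p = 0.0268), Abca1 (1.07, adjusted p = 0.0327) and Thbs1 (1.27, adjusted p = 0.0444) rose, and Elmo1 (-1.49, adjusted p = 0.0258) fell besides Calr. After estradiol C1qa (0.98, adjusted p = 0.0405) and Abca1 (0.996, adjusted p = 0.0349) rose, and Elmo1 fell (-1.37, adjusted p = 0.0303). C1qa and Calr after castration kept their calls in all 22 alternatives, and Calr after estradiol in 21. Calr after both kept its call in 17 of 22, and it ended without any 1 control array or combined array 1 or 3 (-0.88 to -0.74). The arrays of Thbs1 overlapped between groups. The calls of the other genes and of C1qa after estradiol and after both each ended without control array 2, without control array 3 and without further single arrays. Values without such an array ran over 1.45 to 1.86 for C1qb, 0.76 to 1.13 for C1qa, 0.88 to 1.20 for Abca1, 1.003 to 1.27 for Thbs1 and -1.56 to -1.19 for Elmo1. The macrophage markers above moved in the same comparisons.

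Of 28 other genes followed in prostate regression, 7 rose and none fell after castration, 1 rose and 1 fell after estradiol, and 6 rose and none fell after both. This list was drawn up with regression in mind, so its direction is no independent evidence. Krt19, a luminal keratin, rose by 1.74 after castration (adjusted p = 0.000252), 1.36 after estradiol (adjusted p = 0.00184) and 1.82 after both (adjusted p = 0.000165). Ndrg1, a stress- and androgen-regulated gene, rose by 1.60 after castration (adjusted p = 0.0012) and 1.71 after both (adjusted p = 0.000789). The lysosomal protease Ctss rose by 1.53 after castration (adjusted p = 0.00809), and Plau, the urokinase plasminogen activator, by 1.36 after both (adjusted p = 0.00293). The matrix protease Mmp2 fell after estradiol (-0.78, adjusted p = 0.0151), a call that ended without any 1 control array (-0.81 to -0.74).

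**Figure D5:**
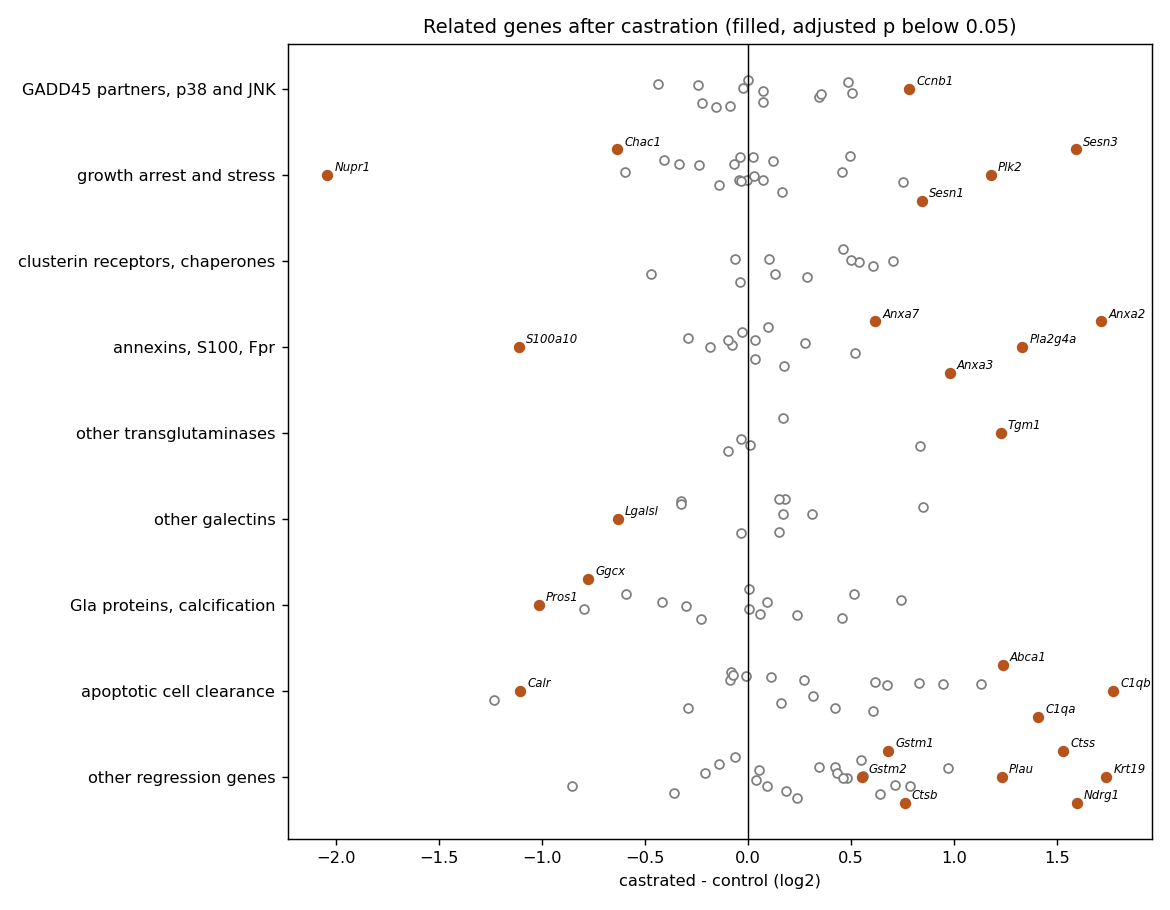
Castrated minus control (log2, horizontal axis) for each measured gene of the 9 lists, 1 list per row. Filled points have an adjusted p below 0.05 and are named, open points did not pass, and vertical scatter within a row is for legibility. Sesn3 (1.59), Anxa2 (1.71) and Krt19 (1.74) lie to the right, and Nupr1 (-2.04) is the farthest to the left.

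The estradiol values of the lists rest in part on estradiol arrays 1 and 2. Only 1 estradiol array, assumed to vary like the other groups, is left without arrays 1 and 2. Without them the calls of Ccnb1 (0.94), Mapk8 (-0.72), Map2k3 (-0.34), Hsf1 (-0.43), Anxa11 (-0.36), Tgm1 (1.02), Pros1 (-0.59), Bglap (0.36), Elmo1 (-0.86) and Mmp2 (-0.62) after estradiol ended. Those of Sesn3 (1.35), Vldlr (-0.76), Pla2g4a (0.95), S100a10 (-1.43), Lgalsl (-0.80), Enpp1 (-1.004), C1qa (1.20), Abca1 (1.41), Calr (-0.78) and Krt19 (1.30) were kept. Trem2 was then 1.13 and Ctss 1.24 above control after estradiol. Lgals3 was 1.36 above control in that fit and did not pass.

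Markers of other cell types were also compared between the groups, which cannot test the tissue label. Over all genes 3.17%, 2.51% and 2.12% were called higher after castration, estradiol and both. Those called lower were 2.36%, 5.48% and 2.21%. A single call in a short list is not read as a result about its cells. Of 8 measured luminal markers, 4 rose and 1 fell after castration, 3 rose and 2 fell after estradiol, and 4 rose and 1 fell after both. The keratins Krt8 and Krt18 rose in all 3 comparisons, by 1.28 and 0.97 after castration, while Pbsn, the androgen-dependent secretory protein probasin, fell after castration (-6.57), estradiol (-4.26) and both (-5.32). None of the basal or accessory gland markers passed in any of the 3. Postn was the 1 fibroblast marker that rose, after castration and after both. Smooth muscle, endothelium and the neutrophil and mast cell list each had 1 fall, after estradiol alone, and of the lymphocyte markers 1 rose after castration, 2 after estradiol and 1 after both. The part of these cell types in the levels of the 8 genes was not tested.

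Genes with the most similar pattern over the 12 arrays were listed by Pearson's r as a description. All treated arrays lay apart from the controls for Clu and Gadd45b, so r over 12 arrays carries that split. For Clu they were Gpnmb (r = 0.981), which is also on the macrophage list, Fosl2 (0.980), Sik1 (0.978), Abcc3 (0.977) and Erbb3 (0.977). For Gadd45b they were Erbb3 (0.988), Clec2g (0.975) and Mmp15 (0.974). Anxa1 was most like Rnd1 (0.939), Tnfrsf12a (0.935) and its relative Anxa2 (0.930). Lgals3 was most like Pld4 (0.952), Abhd11 (0.949) and Mtm1 (0.949), and Gadd45g like Jpt2 (0.904), Zfp46 (0.902) and Dgat2 (0.893). Tgm2 was most like Gja1 (0.946), Rab14 (0.941) and Necap2 (0.936), and Mgp like Igfbp4 (0.952), Abi3 (0.934) and Unc119 (0.932). Gadd45a was most like Or8s10 (0.960), Prf1 (0.949) and Gcg (0.947), and without estradiol arrays 1 and 2 the r of Or8s10 was 0.764.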

How the data were processed

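The authors deposited 1 log2 expression level for every probe set on each array. The arrays were Affymetrix arrays hybridized with labelled cDNA from ventral prostate RNA, and the log base was read from the range of the values. The submitters' processing notes name Affymetrix Expression Console. The sources used here give neither its version nor the normalization or build. Of 29214 probe sets, GEO's platform annotation gave 1 gene symbol to 15310, several to 323 and none to 13581, and 0 columns belonged to other samples. For 527 genes with several probe sets the brightest on average was kept, which left 14506 genes.

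The groups were compared on these values with limma (version 3.58.1, R version 4.3.3). lmFit was given a mean for each group and all 12 arrays, with 8 residual degrees of freedom, and eBayes added 5.29. Tests were 2-sided. All adjusted p-values are limma's, corrected over all genes by Benjamini and Hochberg, with 0.05 as the limit, and "rose" or "fell" is written of genes that passed. The procedure was tested on simulated data for castrated against control, with noise independent between arrays. Of 50 genes changed by each amount (log2), it recovered 18% at 0.6, 68% at 1, 100% at 2 and 98% at 3. It called 0.0559% of unchanged genes. Many changes of 1 or less thus did not pass in the simulation. Fewer genes were changed there than the 803 called after castration in the data, so these shares need not hold for the data. The 8 genes and the lists were chosen with earlier results of these data known. From each list up to 3 genes that passed with the largest differences were named, or the 1 with the smallest p. Krt8, Krt18, Pbsn, Postn, Gpnmb and Mmp12 were named from the marker lists after their values were seen. Alternatives were only the 2 groups compared, leaving out estradiol arrays 1 and 2 or each array in turn, array weights, quantile normalization, median centring, all probe sets, the mean of a gene's probe sets, a filter on low levels, a trended and robust prior, and the replicate number as a block. Same-numbered arrays correlated at -0.16 to 0.28 in their deviations from group means, and 7 of 18 pairs were over 0.1. Arrays with other numbers correlated at -0.25 to 0.28, and 6 of 36 pairs were over 0.1. The share was thus larger for same-numbered arrays, and whether the numbers mark a batch or a pairing was not tested. The main fit left them out. Promoters came from RefSeq (GRCr8). matplotlib 3.10.9 under Python 3.11.15 drew the figures.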

Additional observations from a re-analysis of the deposited data

Results flagged for a closer look

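Among the genes examined by name and the genes of the 9 pathway lists, 6 passed the interaction test of limma. For these 6 the effect of estradiol differed between castrated and intact rats. Over all 14506 genes 159 passed (1.1%). The genes and lists were chosen with earlier results of these data known. The control arrays in this test also enter the differences from control, so the count of 6 is no independent evidence. For Clu the effect of estradiol was -0.01 in castrated rats and 1.65 in intact rats, a difference of -1.66 (adjusted p = 0.00615). For Gadd45b it was 0.11 in castrated rats and 1.84 in intact rats, a difference of -1.74 (adjusted p = 0.0019). Among the genes of the related lists, Sesn3 had effects of -0.04 in castrated rats and 1.24 in intact rats (difference -1.29, adjusted p = 0.0223). Pla2g4a had -0.39 in castrated rats and 0.87 in intact rats (difference -1.26, adjusted p = 0.0172). S100a10 had 0.01 in castrated rats and -1.62 in intact rats (difference 1.63, adjusted p = 0.00394), and Calr had 0.25 in castrated rats and -1.07 in intact rats (difference 1.32, adjusted p = 0.0312). Castration alone changed all 6 in the direction that estradiol did in intact rats. Both differences share the control arrays, and both enter the interaction with the same sign. The shared direction is thus no independent evidence either. The intact side of each difference rests on the estradiol arrays, of which 2 stood apart from the rest. Without those 2 arrays 1 estradiol array is left, so the intact side has no spread of its own. The differences were then -1.98 for Clu, -1.78 for Gadd45b, -1.39 for Sesn3, -1.34 for Pla2g4a, 1.45 for S100a10 and 1.03 for Calr. Clu, Gadd45b and S100a10 passed in all 21 alternatives. For Clu the sum of both single effects would lie beyond the highest value on the arrays, as given above. The call of Sesn3 ended without any 1 control array, castrated array 1 or combined array 1 or 2 (-1.33 to -1.12), and that of Pla2g4a without control array 2 or 3 or castrated array 3 (-1.25 to -1.21). That of Calr ended without any 1 control or castrated array or combined array 1 or 2 (1.22 to 1.35), and it was kept in 10 of 21 alternatives.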

How the results depend on the processing

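Clu and Gadd45b kept their rise against control in all 22 alternatives of each comparison and their interaction in all 21. Clu ranged over 1.95 to 2.17 after castration, 1.48 to 1.97 after estradiol and 1.94 to 2.16 after both. The cause of the changes below was not tested. Of the 8 genes, 5 were called after castration with only the 2 groups compared, 5 without estradiol arrays 1 and 2 and 6 with array weights (3 as reported). After both, 6 were called with only the 2 groups compared, 5 without those arrays, 6 with weights and 2 with all probe sets tested (4 as reported). The test of any group called 5 without those arrays and 6 with weights (3 as reported). Over all genes, the counts for castrated, estradiol and combined against control were 803, 1159 and 627. They were 1872, 197 and 2871 with only the 2 groups compared, 2408, 733 and 2105 without estradiol arrays 1 and 2, and 3788, 2307 and 4134 with weights. For combined against castrated the count was 1 with only the 2 groups compared, 1 without those arrays and 13 with weights. For combined against estradiol it was 2 and 489, for estradiol against castrated 6 and 1627, and 5 with all probe sets, and for the interaction 393 and 1051 (reported as 0, 0 and 159).

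Leaving out each array in turn gave 361 to 1783 genes after castration, 390 to 5329 after estradiol and 265 to 1484 after both. It gave 0 to 1 for combined against castrated, 0 to 4153 for combined against estradiol, 0 to 5417 for estradiol against castrated and 63 to 1684 for the interaction. The highest values for estradiol, for the last 3 and for the any-group test came without estradiol array 3. The 8 genes had 2 to 5 calls after both, 0 to 3 for combined against estradiol, 0 to 2 for estradiol against castrated and 2 to 5 in the test of any group.

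Signs turned only for differences that had not passed. Without estradiol arrays 1 and 2, the estradiol difference from control was -0.33 for Gadd45a, 0.13 for Tgm2 and -0.058 for Plk2, and Lgals3 was 0.10 for estradiol against castrated. With weights, Gadd45a was -0.14 after estradiol, Gadd45b -0.040 for estradiol against castrated, and combined against castrated was 0.012 for Gadd45g, 0.21 for Anxa1 and -0.10 for Lgals3. With quantile normalization Gadd45b was -0.13 for combined against estradiol, Tgm2 0.026 after estradiol and the interaction of Gadd45g -0.013. With medians centred Gadd45b was -0.069 for estradiol against castrated. With single arrays left out, combined against castrated ran over -0.099 to 0.053 for Clu, -0.26 to 0.28 for Anxa1 and -0.22 to 0.30 for Lgals3. Gadd45a ran over -0.28 to 0.41 after estradiol, Tgm2 over -0.039 to 0.21 after castration, and Gadd45b over -0.062 to 0.15 for combined against estradiol and -0.043 to 0.17 for estradiol against castrated. With the replicate number as a block, 825, 1255 and 651 genes were called against control after castration, estradiol and both, and 3, 2 and 3 of the 8 genes. The call of Gadd45g after both ended there (adjusted p = 0.0543). With 3 arrays per group, the intervals of Tgm2, Mgp and Gadd45a leave differences of up to about 0.5 to 1.5 undecided.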
